A study of Mus musculus with 12 samples.

Results

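The genes Cd2, Dok3 and Hvcn1 were examined in GFP+ LSK cells (lineage-negative, Kit+, Sca-1+ bone marrow cells, the fraction that holds blood stem and progenitor cells) sorted from mice that had received a secondary transplant. They were 3 of the 24421 gene symbols in the count table and 3 of the 12744 that passed the filter on low counts. The genes were chosen from these same libraries, because the effect of mutant Runx1 on them differed between cells with and without miR-146a, so that difference is described here and not tested. The study crossed both changes in a 2-by-2 design with 4 groups of 3 libraries. The donor cells of the groups were miR-146aKO/Runx1S291fsX300 (called double genotype here), Runx1S291fsX300 with miR-146a present (Runx1 mutant), miR-146aKO with Runx1 intact (miR-146a knockout), and miR-146a wildtype/Runx1 wildtype (wildtype). The sample titles mark the wildtype and the miR-146a knockout libraries as Empty, and neither the meaning of that word nor the way the Runx1 mutation was introduced is given in the sources used here. All the sorted cells were GFP+. Whether the 3 libraries of a group came from separate mice is not stated, so the spread reported may be partly technical.

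Cd2 encodes a surface receptor of the immunoglobulin superfamily that helps T and NK cells adhere to other cells, and its ligand in the mouse is CD48. Dok3 encodes an adaptor protein without enzyme activity that restrains signalling from the B-cell receptor and from receptors of myeloid cells, in part through the lipid phosphatase SHIP1. Hvcn1 encodes a voltage-gated proton channel, which lets protons leave phagocytes while the NADPH oxidase moves electrons across the membrane, and which is also found in B cells. MiR-146a is a microRNA that dampens innate immune signalling by repressing Traf6 and Irak1, and RUNX1 is the DNA-binding subunit of the core binding factor, which is needed to form and mature blood cells. A pair of changes is additive on the log2 scale when the fold change of both together is the product of the fold changes of each alone. The interaction is the log2 departure from that product.

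The libraries held 3540043 to 7026393 counts, 3540043 to 4353971 of them in the miR-146a knockout group, which was the shallowest. The Mir146 row, the gene absent from both knockout groups by label, could not check the labels, since it had 0 counts in 11 of the 12 libraries, wildtype included. The exception was A031, a library labelled double genotype, with 14 counts, so A031 went against its label. A031 and the Runx1 mutant library A042 also stood apart from the others of their groups in stem cell genes, whose mean log2 CPM (CPM being the count relative to the scaled total of its library) was 6.24 in A031 against 2.504 and 2.85 in the other double-genotype libraries, and 7.34 in A042 against 3.61 and 3.91 in the other Runx1 mutant libraries. Results that rest on these libraries are given with and without them. Kit, a receptor used in the sort, was at 44.0 ± 17.9 CPM (SD, n = 3) in the miR-146a knockout group and 339 ± 111 CPM in the wildtype group. Ly6a, which encodes the sort receptor Sca-1, went the other way, at 755 ± 258 CPM in the miR-146a knockout and 142 ± 87.0 CPM in the wildtype. It was at 50.6 ± 61.1 CPM in the double genotype and 138 ± 105 CPM in the Runx1 mutant. The summed level of 4 Y-linked genes ranged over 13.8 to 214 CPM in the double genotype, 26.2 to 169.6 CPM in the Runx1 mutant, 99.3 to 241 CPM in the miR-146a knockout and 0.547 to 32.0 CPM in the wildtype group, so the sex of the cells was uneven between groups. Its part in the results was not tested apart from a fit that held the Y-linked level as a covariate.

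The mature microRNA is shown because its seed defines the letters searched for in the transcripts of the 3 genes. It is encoded on chromosome 11 (43374435 to 43374456, minus strand, GRCm38.p6, RefSeq), and the capitals mark the seed, bases 2 to 8.
mmu-miR-146a-5p: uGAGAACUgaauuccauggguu
The match to this seed, AGTTCTC, was counted in the longest annotated 3′ UTR of each gene in the GRCm38 transcripts. Cd2 had 0 matches in 58 bases, Dok3 had 0 in 187 bases and Hvcn1 had 0 in 1625 bases. Among UTRs of like length, 1.2%, 2.01% and 12.6% held at least 1 match for the lengths of Cd2, Dok3 and Hvcn1. For comparison, Traf6 held 4 matches in 4170 bases, Irak1 held 2 in 1526 bases and Irak2 held 2 in 1246 bases, and these 3 genes are known targets. The absence of these letters says nothing about indirect control.

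The promoter of Dok3 is shown because RUNX1 binds DNA, and the 3 genes were chosen for a response to its mutation. The window is the 250 bases before the RefSeq start of Dok3 (chr13:55528539-55528788, minus strand, GRCm38.p6). The gene record used below starts further upstream, at 55529296, so the window lies inside the longest annotated form of the gene. The window is printed with its only GGAAGT, the core of many ETS factor motifs, in capitals.
Dok3 promoter: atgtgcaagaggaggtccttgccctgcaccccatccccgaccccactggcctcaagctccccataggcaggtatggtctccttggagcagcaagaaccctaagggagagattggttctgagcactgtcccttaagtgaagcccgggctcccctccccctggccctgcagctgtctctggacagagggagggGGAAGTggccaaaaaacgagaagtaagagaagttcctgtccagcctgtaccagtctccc
GGAAGT lay at bases 192 to 197 of the window and occurs on either strand in 19.7% of the 32851 promoter windows of the same length. The RUNX letters TGTGGT and TGCGGT were searched on both strands and were absent from the Dok3 window. They occur in 14% and 5.1% of all windows. These are matches of letters, not binding sites. Promoters of Cd2 and Hvcn1 are not shown.

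Cd2 was almost silent in 3 of the 4 groups and was expressed in all the miR-146a knockout libraries. The gene (ENSMUSG00000027863.8, chromosome 3, 101275899 to 101287939, minus strand, GRCm38) overlaps no other annotated gene. It had 1 count in each double-genotype library, which is 0.172 CPM in A001, 0.178 in A031 and 0.242 in A051. It had 9 counts in A021, 7 in A042 and 23 in A058 of the Runx1 mutant group, at 1.28, 0.996 and 3.94 CPM. Counts were thus low in both groups, though every Runx1 mutant library held more than any double-genotype library. In the miR-146a knockout group it had 302 counts in A047, 324 in A150 and 340 in A151, at 95.5, 78.4 and 82.8 CPM. In the wildtype group A015 and A040 had 0 counts, which allows up to 3 counts in each, and A053 had 1 count, at 0.142 CPM. No group overlapped another. The double-genotype and wildtype groups were nevertheless both at or under the floor of 3 counts, so no order between them can be read.

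Ratios of the summed Cd2 counts, scaled by library size, put numbers on these gaps, with exact 95% intervals that cover counting error only. The double genotype held 3 counts against 966 in the miR-146a knockout, a ratio of 0.00228 (0.000469 to 0.00667). The Runx1 mutant held 39 counts, a ratio of 0.0231 to the miR-146a knockout (0.0163 to 0.0318). Both ratios describe contrasts that the choice of Cd2 or its passing of the count filter favoured, as Cd2 passed the filter only through the miR-146a knockout libraries. Between those groups, the ratio of the double genotype to the Runx1 mutant was 0.0985 (0.0195 to 0.310). Against the single count of the wildtype group, the ratio was 36.9 (6.24 to 1493) for the Runx1 mutant and 1595 (286 to 63079) for the miR-146a knockout. The width of the last intervals comes from that single count.

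Dok3 was high in both single-genotype groups, intermediate in the double genotype and low in the wildtype. The gene (ENSMUSG00000035711.5, chromosome 13, 55523231 to 55529296, minus strand, GRCm38) overlaps no other annotated gene. Its level in the double genotype was 20.2 CPM in A001, 24.7 in A031 and 32.7 in A051. Among the Runx1 mutant libraries it was 117 CPM in A021, 28.3 in A042 and 62.4 in A058. In the miR-146a knockout group A047 had 98.9 CPM, A150 had 69.4 and A151 had 82.5. The wildtype libraries were all lower, with 1.92 CPM in A015, 3.997 in A040 and 3.99 in A053. The group means were 25.9 ± 6.37 CPM in the double genotype, 69.4 ± 44.9 in the Runx1 mutant, 83.6 ± 14.8 in the miR-146a knockout and 3.30 ± 1.20 in the wildtype (SD, n = 3 each). The Runx1 mutant group was the most variable and overlapped both the miR-146a knockout and the double genotype. The double genotype and the miR-146a knockout did not overlap, nor did the wildtype group and any other.

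Hvcn1 was highest in the miR-146a knockout and lowest in the wildtype, with the double genotype and the Runx1 mutant at overlapping levels between them. The gene (ENSMUSG00000064267.13, chromosome 5, 122206804 to 122242297, plus strand, GRCm38) was at 79.1 CPM in A001, 35.4 in A031 and 59.4 in A051 of the double genotype. The Runx1 mutant libraries held 72.5 CPM (A021), 75.7 (A042) and 57.8 (A058). In the miR-146a knockout group the levels were 142.6 CPM (A047), 258.7 CPM (A150) and 221.5 CPM (A151), and every one of these was above every library of the other groups. The wildtype libraries were the lowest, with 10.4 CPM in A015, 18.7 in A040 and 14.8 in A053. The means were 57.9 ± 21.9, 68.7 ± 9.53, 208 ± 59.3 and 14.6 ± 4.13 CPM in the double genotype, Runx1 mutant, miR-146a knockout and wildtype groups (SD, n = 3 each). The double genotype and Runx1 mutant ranges overlapped, and no other pair of groups did. A031 was the lowest of its group.

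**Figure D1:**
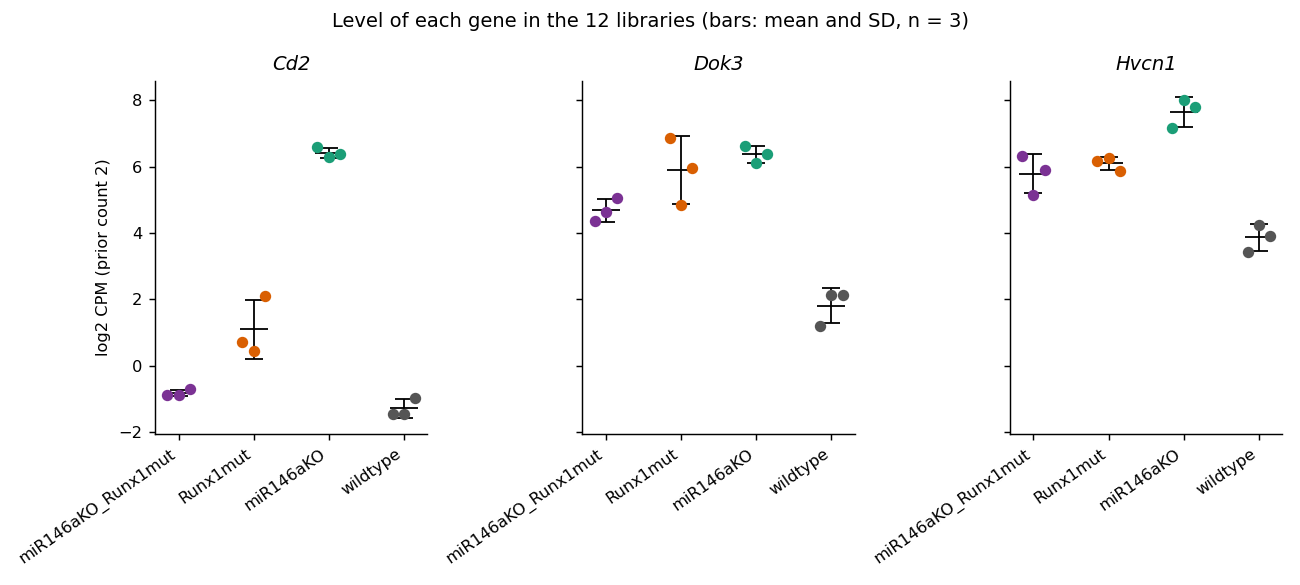
Level of Cd2, Dok3 and Hvcn1 in each library, on the y axis as log2 CPM with a prior count of 2, by group on the x axis. The groups are named miR146aKO_Runx1mut (double genotype), Runx1mut (Runx1 mutant), miR146aKO (miR-146a knockout) and wildtype. Dots are libraries, and bars are the mean and SD (n = 3). All 3 genes were highest in the miR-146a knockout by group mean, and the wildtype dots sit below those of every other group in Dok3 and Hvcn1.

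Hvcn1 shares 1574 exon bases with Tctn1, a gene on the opposite strand that encodes a protein of the ciliary transition zone (chromosome 5, 122237848 to 122264460, GRCm38). The labels do not state that the counting used strand, so reads of the shared bases could not be assigned with certainty. Tctn1 was at 51.9 ± 15.1 CPM in the double genotype, 48.0 ± 21.7 in the Runx1 mutant, 155 ± 9.71 in the miR-146a knockout and 44.4 ± 20.9 in the wildtype (SD, n = 3 each). Both genes were thus highest in the miR-146a knockout. They parted in the wildtype group. Its Hvcn1 levels were below those of every other library, whereas its Tctn1 levels, 25.9 to 67.1 CPM, overlapped the 41.4 to 69.3 CPM of the double genotype and the 34.6 to 73.0 CPM of the Runx1 mutant. The interaction of Tctn1 was −1.69 (SE 0.65) with an adjusted p of 0.458 in edgeR's quasi-likelihood test.

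All 3 genes had their lowest group mean in the wildtype and their highest in the miR-146a knockout. That order was seen in 12% of the 12744 genes tested, and the rule that chose the genes favours it. The libraries of the miR-146a knockout were all above those of the wildtype for all 3 genes, as they were for 10.7% of genes tested. The Runx1 mutant libraries were likewise above the wildtype libraries for all 3 genes, against a background of 5.72%, and the double-genotype libraries were below those of the miR-146a knockout for all 3, against 9.81%. These contrasts make up the interaction, so nothing further is read from them. In bulk libraries, fewer cells of a type and less RNA per cell cannot be told apart.

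The fitted log2 differences show where the genes part ways. Without Runx1 mutation, loss of miR-146a went with log2 differences from wildtype of 4.66 (SE 0.64) for Dok3 and 3.83 (SE 0.47) for Hvcn1. With miR-146a present, the Runx1 mutant differed from wildtype by 4.39 (SE 0.63) for Dok3 and 2.23 (SE 0.44) for Hvcn1. Both single changes thus went with higher levels of both genes. Where miR-146a was already absent, mutant Runx1 went with lower levels: the double genotype minus the miR-146a knockout was −1.69 (SE 0.56) for Dok3, −1.84 (SE 0.43) for Hvcn1 and −8.62 (SE 1.02) for Cd2. Against the Runx1 mutant, the double genotype differed by −1.42 (SE 0.55) for Dok3, −0.25 (SE 0.42) for Hvcn1 and −3.26 (SE 0.89) for Cd2. The interval for Hvcn1 in that last comparison ran from −1.14 to 0.65, so it holds no difference and also a lower level. These are values of contrasts the choice of genes used, with no test.

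The interactions that follow from these differences were −13.41 (SE 1.40) for Cd2, −6.08 (SE 0.84) for Dok3 and −4.07 (SE 0.61) for Hvcn1 on the log2 scale. The 3 genes were all of those past an adjusted p of 0.05 in this contrast, which is 0.0235% of the genes tested, and this is the value that chose them. Their adjusted p-values from edgeR were 0.00202, 0.0257 and 0.0457, so Hvcn1 lay just inside the threshold. The next 3 genes in order lay outside it, each with an adjusted p of 0.137. They were Spib, a transcription factor of B cells and plasmacytoid dendritic cells, at −14.99 (SE 2.67), Rasgrp1, an activator of Ras in lymphocytes, at −9.35 (SE 1.68), and the autophagy gene Atg9b at 10.01 (SE 1.81). The fitted values of Cd2 rest on a wildtype group with 1 count and depend on the small count that the fit adds, so they are not bounds on its change.

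On the CPM scale, the shortfall can be read against either kind of additivity. If the absolute differences from wildtype had added up, the double genotype would have held 87.6 CPM of Cd2, 149.7 CPM of Dok3 and 261.6 CPM of Hvcn1. It held 0.197, 25.9 and 57.9 CPM. For Dok3 the mean was 20.98-fold that of the wildtype in the Runx1 mutant and 25.3-fold in the miR-146a knockout, whose product would put the double genotype at 1751 CPM. It was 7.82-fold the wildtype mean, which is 67.8-fold short of the product. For Hvcn1 the mean was 4.70-fold that of the wildtype in the Runx1 mutant and 14.2-fold in the miR-146a knockout, a product that would give 976 CPM. The double genotype was at 3.97-fold, which is 16.8-fold short. In Dok3 and Hvcn1 the double genotype lay below the level of each single genotype by group mean, so the sign of the departure by means does not depend on the choice of scale. For Hvcn1 the libraries of the double genotype and the Runx1 mutant overlapped. In Cd2 the same order held, with double-genotype libraries at the floor.

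**Figure D2:**
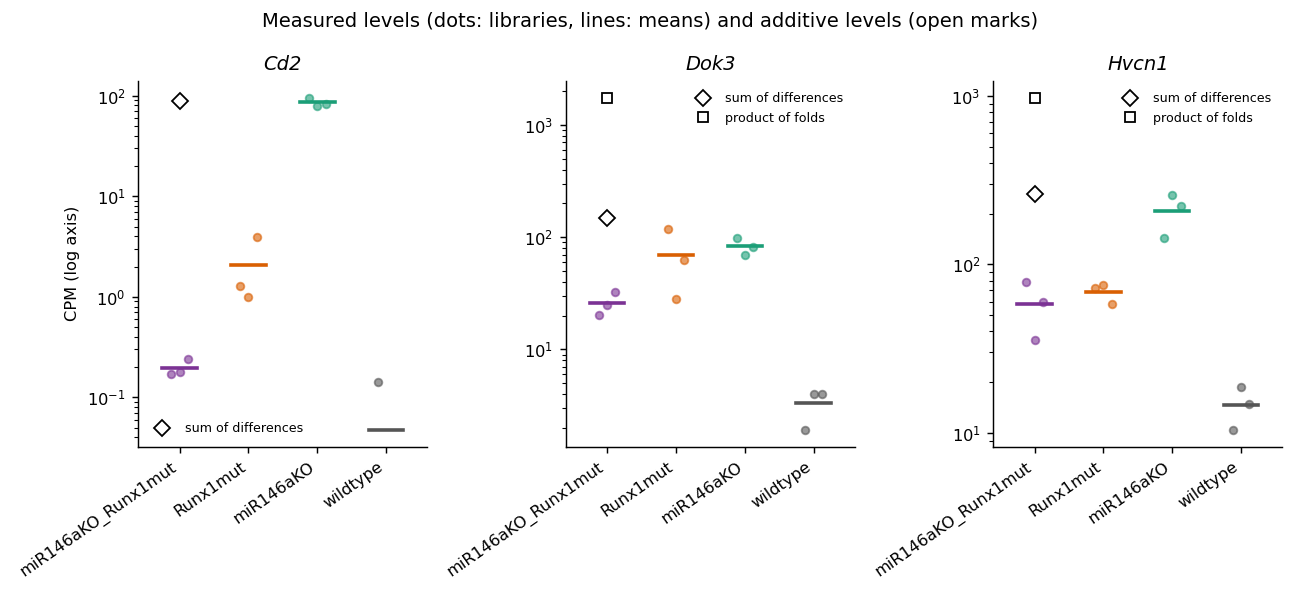
Measured and additive levels of the 3 genes, with CPM on a log y axis and the 4 groups on the x axis. Dots are libraries and lines are group means, the open diamond is the double-genotype level if absolute differences from wildtype added up, and the open square (Dok3 and Hvcn1) is the level if fold changes multiplied. The 2 wildtype libraries with 0 counts of Cd2 cannot be drawn on a log axis. The measured double-genotype dots sit below the open marks in each gene, as with 25.9 CPM of Dok3 against 149.7 and 1751 CPM.

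A pair of comparisons in the same fit has estimates nearly uncorrelated with that of the interaction for Dok3 and Hvcn1. They are the double genotype against the wildtype and the Runx1 mutant against the miR-146a knockout. The correlation of their estimates with that of the interaction lay between −0.0389 and 0.000945 for Dok3 and Hvcn1. For Cd2 it was −0.0248 for the Runx1 mutant against the miR-146a knockout and −0.354 for the double genotype against the wildtype. For the 3 genes only these comparisons were tested, with edgeR's quasi-likelihood test and Benjamini-Hochberg adjustment over the 12744 genes. All comparisons of a gene share the same estimate of its spread, and the choice by the interaction favours genes where that estimate is low. The SE, intervals and p-values below may thus be too small, and the tests are not fully independent of the choice.

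In the double genotype against the wildtype, Dok3 and Hvcn1 were higher in all double-genotype libraries, and neither passed the test after adjustment. Dok3 differed by 2.97 on the log2 scale (SE 0.60, 95% interval 1.69 to 4.25), with an unadjusted p of 0.000202 and an adjusted p of 0.302 by edgeR. Hvcn1 differed by 1.99 (SE 0.43, 95% interval 1.057 to 2.92), with an unadjusted p of 0.000426 and an adjusted p of 0.302. Cd2, with 3 counts in the double genotype and 1 in the wildtype, had an adjusted p of 0.714 and gets no fold. EdgeR called 0 of the 12744 genes in this comparison, 0%, although 1201 had an unadjusted p under 0.05. The number called was 192 by DESeq2 and 0 by limma-voom. Dok3 and Hvcn1 were among those called by DESeq2, with adjusted p of 4.30e-04 and 0.00332, and among those called by edgeR with no count filter. Libraries did not overlap, with the double genotype higher, in 6.32% of the genes tested. Without A031, the double-genotype library that holds Mir146 counts, Dok3 differed by 3.00 with an adjusted p of 0.179 and Hvcn1 by 2.24 with an adjusted p of 0.170, while Cd2 had an adjusted p of 0.620.

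In the Runx1 mutant against the miR-146a knockout, Cd2 fell, Hvcn1 was lower without passing the test, and Dok3 differed by less than its error. Cd2 differed by −5.36 on the log2 scale (SE 0.85, 95% interval −7.17 to −3.55) with an adjusted p of 0.0335 by edgeR, lower in 3 of 3 libraries. It was 1 of 18 genes called, 0.141% of those tested, and of 12 called lower, 0.0942%. Cd2 passed the count filter only through its high level in the miR-146a knockout, which favours a lower level in the other groups, so the call lends no support. Each of 5 libraries ended the call when left out. The adjusted p was then 0.143 without A021, 0.0936 without A042, 0.0559 without A058, 0.162 without A150 and 0.151 without A151, with log2 differences from −6.20 to −5.03 over all 12 omissions.

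Hvcn1 differed by −1.60 (SE 0.43, 95% interval −2.51 to −0.68) between the Runx1 mutant and the miR-146a knockout, with an unadjusted p of 0.00215 and an adjusted p of 0.122 by edgeR. Its 3 Runx1 mutant libraries were all below the 3 miR-146a knockout libraries, a separation seen in 10.4% of genes tested. DESeq2 gave it an adjusted p of 0.00688. Dok3 differed by −0.27 (SE 0.54, 95% interval −1.43 to 0.90), with an adjusted p of 0.881. That interval holds both a lower and a higher level in the Runx1 mutant, so the single genotypes are not shown to be alike in Dok3. Without A042, whose Dok3 level was the lowest of its group, the Dok3 difference was 0.11 with an adjusted p of 0.963.

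Per kilobase of exon, the genes can be set beside each other within a group. Dok3 was at 10.5 ± 2.59 CPM per kb in the double genotype and Hvcn1 at 16.3 ± 6.15, with Cd2 at 0.113 ± 0.0224. The levels in the Runx1 mutant were 28.2 ± 18.3 for Dok3, 19.3 ± 2.67 for Hvcn1 and 1.19 ± 0.932 for Cd2. Cd2 was the lowest of the 3 in both groups with mutant Runx1. In the miR-146a knockout they were 34.0 ± 6.01 for Dok3, 58.3 ± 16.6 for Hvcn1 and 49.1 ± 5.09 for Cd2 (SD, n = 3). In the wildtype they were 1.34 ± 0.488 for Dok3, 4.10 ± 1.16 for Hvcn1 and 0.0273 ± 0.0472 for Cd2. Cd2 thus came within the range of the other genes in the miR-146a knockout only. The ratio of Hvcn1 to Dok3 counts was 1.43 to 3.92 in the double genotype, 0.618 to 2.67 in the Runx1 mutant, 1.44 to 3.72 in the miR-146a knockout and 3.71 to 5.43 in the wildtype. The lowest values of this ratio, 0.618 in A021 and 0.926 in A058, were in Runx1 mutant libraries, the only ones of the 12 with fewer counts of Hvcn1 than of Dok3.

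The Cd2 pathway list held 18 symbols of Cd2 ligands, relatives of the SLAM receptor family and proteins that bind their tails, of which 17 were in the table and 15 were tested. In the Runx1 mutant against the miR-146a knockout, edgeR called 1 of the 15, beside 0.141% of all genes tested. Of the 15, 8 were lower at an unadjusted p under 0.05, and DESeq2 called 5 lower and limma-voom 1. Over all 12744 genes, in both directions, these counts were 1771, 694 and 43. In the same order they were 1201, 192 and 0 in the double genotype against the wildtype. They were 2026, 839 and 76 in the miR-146a knockout against the wildtype, and 1206, 166 and 0 for the interaction. These are also the background of the lists below. The gene called by edgeR was Cd2ap, an adaptor that binds the tail of CD2 and links it to actin, which fell to 41.3 ± 9.53 CPM in the Runx1 mutant, against 232 ± 28.9 CPM in the miR-146a knockout, a log2 difference of −2.49 and an adjusted p of 0.0430 (edgeR). The median of the list in that comparison was −2.01, beside −0.0025 over all genes tested. In the double genotype against the wildtype, edgeR called 0 of the 15, with 3 higher and 1 lower at an unadjusted p under 0.05, 2 called by DESeq2 and 0 by limma-voom. The median there was −0.14. In the miR-146a knockout against the wildtype 13 of the 15 had positive differences, with a median of 1.20. The only gene of the list that edgeR called there was Sh2d1b1, which encodes the SLAM adaptor EAT-2, with 42.8 ± 8.04 CPM in the miR-146a knockout and 0 counts in every wildtype library (adjusted p 0.0289, edgeR), in a comparison where it called 0.18% of all genes tested. Of the 15 genes there, 6 were higher and 1 lower at an unadjusted p under 0.05, while DESeq2 called 4 higher and limma-voom 3. The interaction was negative in 12 of the 15 with none called by edgeR, 4 at an unadjusted p under 0.05, 2 called by DESeq2 and 0 by limma-voom.

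Cd48, which encodes the ligand of CD2, did not show the profile of its receptor. It was at 97.0 ± 50.9 CPM in the double genotype, 131 ± 56.4 in the Runx1 mutant, 127 ± 12.002 in the miR-146a knockout and 55.6 ± 47.8 in the wildtype (SD, n = 3 each), with overlap between all groups except the miR-146a knockout and the wildtype. Cd84, a SLAM family receptor, was at 126 ± 51.5, 91.8 ± 40.5, 267 ± 14.2 and 116 ± 28.9 CPM in the double genotype, Runx1 mutant, miR-146a knockout and wildtype. Slamf7, another receptor of the family, was at 12.1 ± 13.2, 46.1 ± 67.9, 299 ± 56.3 and 26.8 ± 39.8 CPM in that order of groups. Both were highest in the miR-146a knockout, and neither passed the test in any of the comparisons.

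The Dok3 list held 18 symbols of Dok relatives and of proteins that act with Dok3 or in B-cell receptor signalling, all in the table, and 15 were tested. EdgeR called 0 of them in the double genotype against the wildtype, with 2 higher at an unadjusted p under 0.05, 1 called by DESeq2 and 0 by limma-voom. In the Runx1 mutant against the miR-146a knockout it also called 0, with 1 higher and 1 lower at an unadjusted p under 0.05, 2 called by DESeq2 and 0 by limma-voom. The medians were 0.29 and −0.25 on the log2 scale, beside 0.032 and −0.0025 over all genes tested. Inpp5d, which encodes SHIP1, the phosphatase that Dok3 recruits, was at 102 ± 36.2 CPM in the double genotype, 110 ± 70.3 in the Runx1 mutant, 134 ± 49.5 in the miR-146a knockout and 77.3 ± 13.2 in the wildtype. Its ranges overlapped between all 4 groups. Syk, the kinase that starts B-cell receptor signalling, was at 131 ± 49.7, 122 ± 16.8, 351 ± 137 and 85.4 ± 24.0 CPM in the same order of groups.

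The relatives of Dok3 were low or silent. Dok1 was at 12.3 ± 3.52 CPM in the double genotype, 7.68 ± 3.41 in the Runx1 mutant, 16.4 ± 1.35 in the miR-146a knockout and 34.8 ± 34.3 in the wildtype. Dok2, which like Dok1 restrains Ras signalling in blood cells, was at 7.70 ± 4.16, 15.8 ± 18.5, 18.7 ± 12.3 and 9.68 ± 8.33 CPM in the same order. Dok5, Dok6 and Dok7 did not pass the count filter. The low level of Dok3 in the wildtype group was thus not matched in Dok1, whose mean was highest there, with a library at 74.4 CPM.

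The phagocyte oxidase list, the enzyme that the proton channel works beside, held 8 genes, all tested. None was called by edgeR in the double genotype against the wildtype, with 2 higher at an unadjusted p under 0.05, 2 called by DESeq2 and 0 by limma-voom. All 8 had positive differences there, with a median of 1.05. None was called in the Runx1 mutant against the miR-146a knockout by edgeR, DESeq2 or limma-voom, with 1 lower at an unadjusted p under 0.05 and a median of 0.073. Cybb, the catalytic subunit, was at 199 ± 55.0 CPM in the double genotype, 159 ± 152 in the Runx1 mutant, 373 ± 170 in the miR-146a knockout and 81.1 ± 86.9 in the wildtype. Its Runx1 mutant libraries ran from 8.68 CPM in A042 to 313 CPM in A021, whereas those of Hvcn1 ran from 57.8 to 75.7 CPM. Ncf1, the organiser subunit, was at 461 ± 299, 343 ± 257, 189 ± 111 and 173 ± 147 CPM in the same order of groups, and Rac1, a GTPase that serves the oxidase and many other processes, was at 486 ± 35.2, 469 ± 34.6, 422 ± 70.8 and 464 ± 129 CPM. Neither of those genes was highest in the miR-146a knockout, where Hvcn1 was.

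Likeness of profile was measured over the 12 libraries as the root mean square difference in log2 CPM after each gene was centred on its own mean, among 9632 named genes with a mean log2 CPM of at least 2. It is a description of these libraries only, and since groups differ in many genes at once it says nothing of shared control. For Cd2, the nearest genes were Gimap3 at 1.36, Rasgrp1 at 1.39, Fcmr at 1.54, Adam19 at 1.61, Card6 at 1.62 and Asb2 at 1.65. Gimap3 belongs to a family of GTPases of lymphocytes, and Fcmr encodes the Fc receptor for IgM. Gimap3 was at 4.56 ± 6.98 CPM in the double genotype, 10.1 ± 7.79 in the Runx1 mutant, 311 ± 103 in the miR-146a knockout and 4.300 ± 2.43 in the wildtype. Fcmr was at 1.23 ± 1.67, 1.79 ± 2.61, 264 ± 186 and 1.93 ± 2.38 CPM in the same order of groups. Hvcn1 stood at place 57 by this measure and Dok3 at place 97.

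For Dok3 the nearest of the 9632 genes was Hvcn1, at 0.902. It was followed by Itgb2 at 0.906, Fcgr2b at 0.907, Nedd9 at 1.00, Mif4gd at 1.01 and Prkcd at 1.10. Itgb2 encodes the shared chain of the leukocyte integrins, and Fcgr2b the inhibitory Fc receptor for IgG of B cells and myeloid cells. Fcgr2b was at 34.1 ± 13.7 CPM in the double genotype, 56.9 ± 37.8 in the Runx1 mutant, 51.9 ± 1.94 in the miR-146a knockout and 7.22 ± 8.75 in the wildtype, and as in Dok3 the ranges of the single genotypes overlapped. Itgb2 was at 233 ± 87.7, 249 ± 52.6, 348 ± 80.8 and 49.8 ± 27.9 CPM in the same order of groups. For Hvcn1 the nearest genes were Ero1lb at 0.601, Adgre5 at 0.649, Itgb2 at 0.673, Nedd9 at 0.751, Cd37 at 0.760 and Filip1l at 0.812, with Dok3 at place 23. Ero1lb, an oxidase of protein folding in secretory cells, was at 50.2 ± 16.4, 66.8 ± 43.3, 190 ± 49.2 and 20.95 ± 3.79 CPM. Itgb2 and Nedd9, a scaffold protein of integrin signalling, were the genes shared by both sets.

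**Figure D3:**
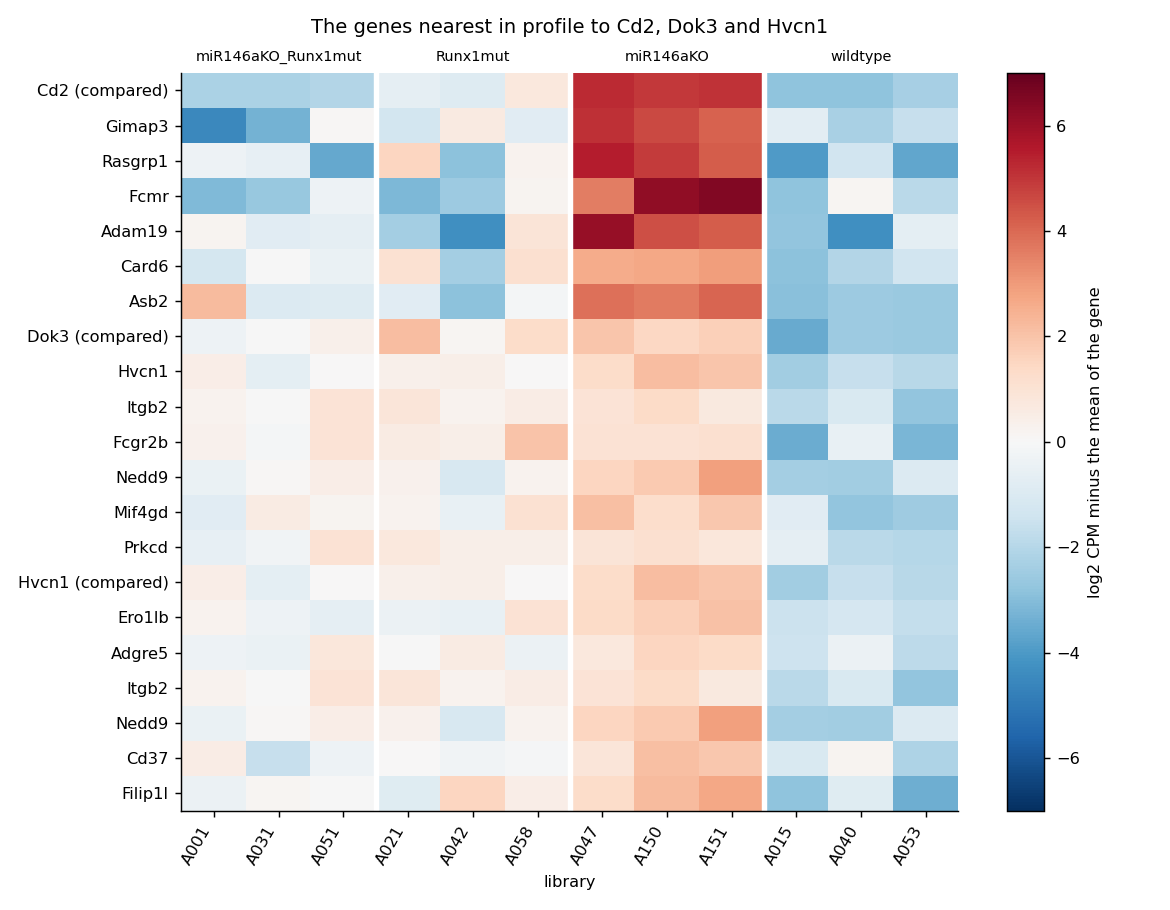
The 6 genes nearest in profile to Cd2, Dok3 and Hvcn1, each set below the gene it is compared with, by library on the x axis. Colour is log2 CPM minus the mean of the gene over the 12 libraries, with red for above and blue for below. The genes near Cd2 are red in the miR-146a knockout columns and mostly pale or blue elsewhere, as with Gimap3 at 311 CPM there against 4.56 to 10.1 CPM in the groups that carry mutant Runx1, while those near Dok3 and Hvcn1 are blue mainly in the wildtype columns.

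The cells were sorted as lineage-negative, yet counts of genes on the marker lists of mature cells were present in all groups. The sum over such a list can rest on few genes. In the double genotype, Mpo of the neutrophil list was at 27593 ± 19737 CPM. Nkg7 of the T and NK list was at 324 ± 304 CPM there, and Cd3e at 0.693 ± 0.650 CPM. The sums thus do not show mature cells of each type in every group. In the Runx1 mutant against the wildtype, where Dok3 differed by 4.39 and Hvcn1 by 2.23, the median log2 difference was 0.099 over the B-lineage markers, 0.42 over those of monocytes and macrophages, 0.12 for plasmacytoid dendritic cells, 1.14 for plasma cells, 1.80 for neutrophils and 2.33 for T and NK cells. All 13 B-lineage markers were tested, and their summed level was 97.2 to 185 CPM in the double genotype, 29.7 to 252 CPM in the Runx1 mutant, 617 to 3533 CPM in the miR-146a knockout and 52.8 to 105 CPM in the wildtype. All 13 had positive differences in the miR-146a knockout against the wildtype and edgeR called 1, Cd79b of the B-cell receptor, beside 0.18% of all genes tested. Of the 13, 11 were higher at an unadjusted p under 0.05, and DESeq2 called 8 and limma-voom 1. Over all genes tested, in both directions, these counts were 2026, 839 and 76. The interaction of the B-lineage markers was negative in 13 of 13, with 0 called by edgeR. It had an unadjusted p under 0.05 in 8, with 2 called by DESeq2 and 0 by limma-voom. Over all genes tested, those 3 counts were 1206, 166 and 0. In the Runx1 mutant group, Cd79a was at 0 counts in A021 and A042 and at 37.6 CPM in A058. Cd79b was at 17.9, 11.95 and 74.4 CPM in A021, A042 and A058, beside 11.7 to 20.2 CPM in the wildtype. In the same order of libraries, Dok3 was at 117, 28.3 and 62.4 CPM and Hvcn1 at 72.5, 75.7 and 57.8 CPM. In A047, A150 and A151 the B-lineage sum was 617, 3241 and 3533 CPM. Dok3 was at 98.9, 69.4 and 82.5 CPM in them, and Cd2 at 95.5, 78.4 and 82.8 CPM. The part of B-lineage cells in these levels was not tested. The plasma cell sum over 6 markers was 134 to 543, 104 to 1771, 4022 to 13533 and 44.0 to 935 CPM in the double genotype, Runx1 mutant, miR-146a knockout and wildtype.

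T and NK cells express Cd2, as B-lineage cells of the mouse also do, and 10 of 14 T and NK markers were tested. The sum over all 14 was 198 to 770 CPM in the double genotype, 95.6 to 253 in the Runx1 mutant, 380 to 2783 in the miR-146a knockout and 113 to 403 in the wildtype. The interaction was negative in 8 of the 10, with 0 called by edgeR, DESeq2 or limma-voom. At an unadjusted p under 0.05 there were 6 negative ones and 1 positive, beside 1206 in either direction over all genes tested. Cd3e, which defines T cells, took values of 644 CPM (A047), 8.71 CPM (A150) and 2.68 CPM (A151) in the miR-146a knockout group, whereas Cd2 was at 95.5, 78.4 and 82.8 CPM in those libraries. Ncr1 of NK cells had 0 counts in A047, against 5.81 CPM for A150 and 2.68 CPM for A151. Cd4, found on helper T cells and some other blood cells, was at 18.1 ± 30.5 CPM in the double genotype, 2.80 ± 2.95 in the Runx1 mutant, 227 ± 69.8 in the miR-146a knockout and 1.0003 ± 1.249 in the wildtype (SD, n = 3 each), and so was high in the same group as Cd2. Markers of this list thus differed in how evenly they were spread over the miR-146a knockout libraries.

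Monocyte and macrophage markers, 12 of 12 tested, summed to 531 to 4445 CPM in the double genotype, 70.9 to 458 in the Runx1 mutant, 452 to 7522 in the miR-146a knockout and 231 to 387 in the wildtype. All 12 had negative differences in the Runx1 mutant against the miR-146a knockout, where Dok3 differed by −0.27 and Hvcn1 by −1.60. Of the 12, edgeR called 0 in that comparison, 11 were lower at an unadjusted p under 0.05, DESeq2 called 8 and limma-voom 0. Over all genes tested, in both directions, these counts were 18, 1771, 694 and 43. All 12 had positive differences in the double genotype against the wildtype, where Dok3 differed by 2.97 and Hvcn1 by 1.99. There edgeR called 0 of the 12, with 10 higher at an unadjusted p under 0.05, 2 called by DESeq2 and 0 by limma-voom. The counts over all genes tested were 0, 1201, 192 and 0 in the same order. The 8 of 9 neutrophil markers that were tested summed to 12121 to 53270, 2383 to 52683, 3783 to 10997 and 2038 to 26334 CPM in the 4 groups in the order used above. The 6 plasmacytoid dendritic markers, of which 5 were tested, summed to 101 to 333, 126 to 366, 609 to 902 and 221 to 460 CPM. The 12 stem cell markers summed to 305 to 1931 CPM in the double genotype, 337 to 3610 in the Runx1 mutant, 732 to 1525 in the miR-146a knockout and 1827 to 3974 in the wildtype. The wildtype group, where the 3 genes were lowest, thus had the highest minimum of that sum. In A042, with a stem cell sum of 3610 CPM, Hvcn1 was at 75.7 CPM, above every wildtype library. The part that cells of other types, the depth of the libraries and the sex of the cells had in the levels of Cd2, Dok3 and Hvcn1 was not tested beyond these values.

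**Figure D4:**
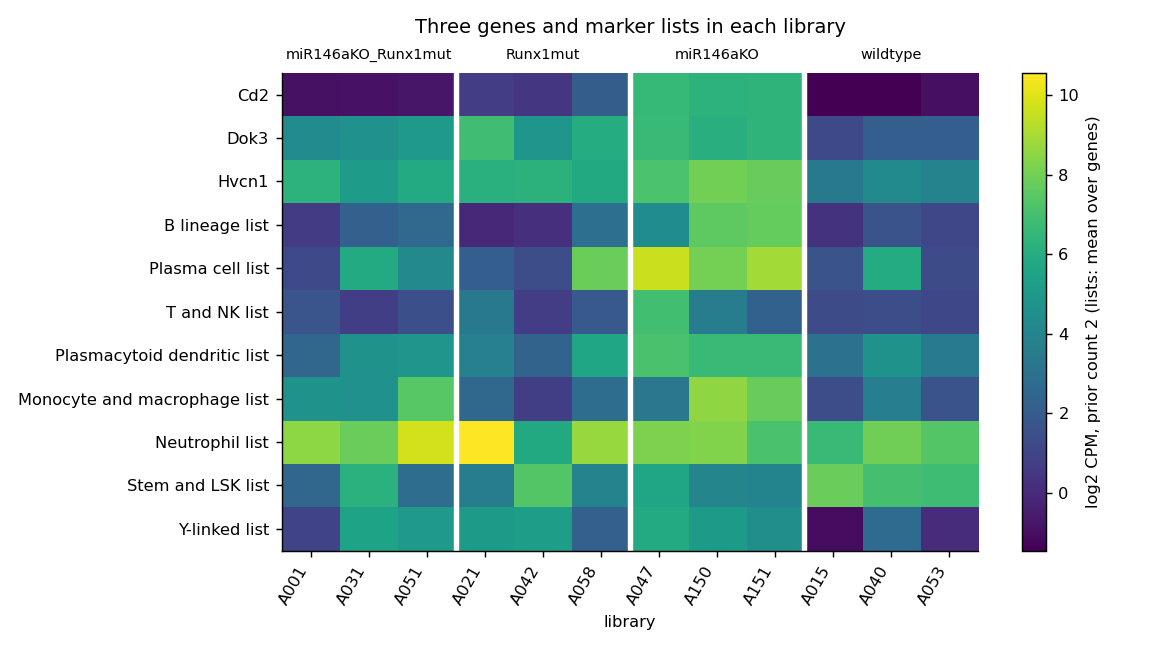
Levels of the 3 genes and of the marker lists in each library (x axis, grouped by genotype), coloured by log2 CPM with a prior count of 2, which for a list is the mean over its tested genes. The B-lineage, plasma cell and plasmacytoid dendritic rows are brightest in the miR-146a knockout columns, as are those of Cd2 and Hvcn1, whereas the brightest Dok3 library is A021 of the Runx1 mutant (6.88, against 6.63 at most in the miR-146a knockout). The neutrophil row is also brightest in A021 (10.56, against 8.28 at most in the miR-146a knockout). In the miR-146a knockout columns the T and NK row is bright in A047 (6.93) and less so in A150 (3.59) and A151 (2.30).

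The interaction of each gene kept its sign under all 20 alternative settings, of which 7 changed the processing, 12 left out 1 library each and 1 left out A031 and A042 together. These fits reuse the libraries whose interaction chose the genes, so the kept sign was favoured by that choice and lends no support. Whether the interaction passed an adjusted p of 0.05 varied far more. Cd2 passed under 19 of the 20, Dok3 under 7 and Hvcn1 under 5. Without A031 and A042 together the interactions were of the same sign and 6 genes were called in the whole table, with the interaction of Cd2 and Dok3 but not Hvcn1 past the threshold. Hvcn1 passed in none of the 12 fits that left out 1 library, and Dok3 in 1, without A042.

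**Figure D5:**
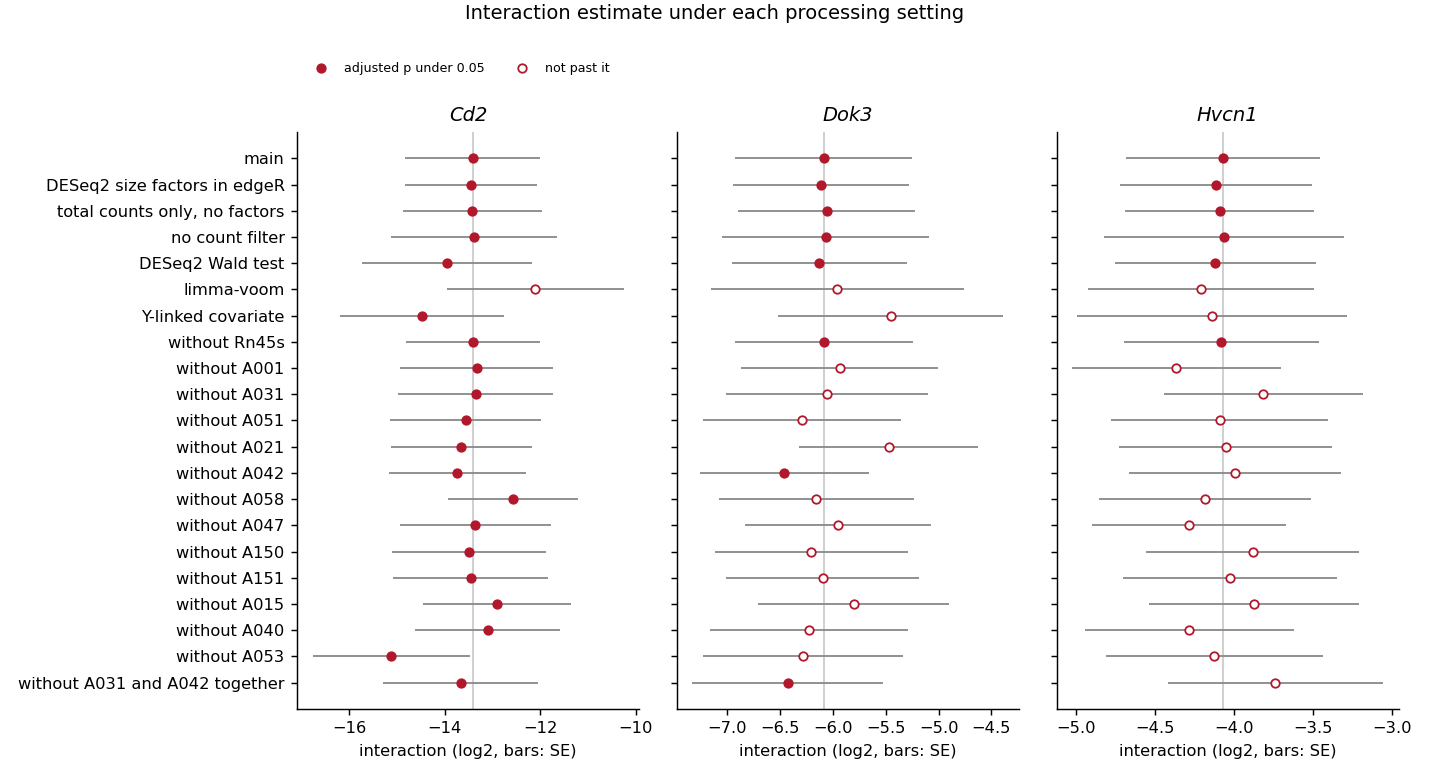
Interaction estimate (x axis, log2) of each gene under each setting, down the y axis from the setting used in the text. Bars are the SE, filled points have an adjusted p under 0.05 and open points do not, and the grey line marks the value used. All the points lie below 0, between −15.12 and −12.10 for Cd2, and most points of Dok3 and Hvcn1 with 1 library left out are open.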

How the data were processed

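The deposited table held counts per gene for 12 libraries. Per the submitters' processing notes, reads were checked with FastQC 0.11.2, aligned with HISAT2 2.0.4 to mm10 (GRCm38) and counted with featureCounts 1.5.2. Per the labels' protocols, RNA was amplified to cDNA before library preparation, and no molecular identifiers are named, so counts are not independent molecules. No source used here gives the strand or multi-mapping settings. Library groups came from the deposited group table, and 0 value columns were left out.

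The counts as the authors deposited them were scaled by TMM, filtered with filterByExpr and fitted with edgeR 4.0.16 (limma 3.58.1, R 4.3.3) with all 12 libraries in 1 quasi-likelihood fit. Of 24421 symbols, 12744 were tested and 5211 had no count. Adjusted p-values are Benjamini-Hochberg over all genes tested, with a threshold of 0.05. Standard errors are the log2 difference divided by the root of F. CPM are counts relative to the TMM-scaled library size. The common biological coefficient of variation was 0.809, so the design resolves large changes only. Between 3.91% and 17.8% of each library was Rn45s, a ribosomal RNA gene. DESeq2 1.42.0, limma-voom, other scalings, no count filter, a Y-linked covariate, Rn45s left out and each library left out were the alternatives.

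The 3 genes and all gene lists were chosen with earlier results of these data known. The genes named were the 3 members, Runx1, Mir146 and overlapping genes, list genes called in any comparison, up to 4 of the most abundant genes and the direct partners of each list, the 6 genes nearest in profile to each member, and the 3 genes next past the threshold. Genes given as markers or known targets were chosen after their values were seen where they fall outside this rule.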

Additional observations from a re-analysis of the deposited data

Results flagged for a closer look

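The effect of mutant Runx1 differed between cells without and with miR-146a in 3 results, by an interaction term fitted over all 12 libraries. Its log2 value was −13.41 for Cd2, −6.08 for Dok3 and −4.07 for Hvcn1. These are the values by which the genes were chosen, so they are descriptions of these libraries and not a further test. In all 3 genes the double-genotype libraries were below the miR-146a knockout libraries, and the Runx1 mutant libraries were above the wildtype libraries.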

How the results depend on the processing

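The sign of the 3 interactions held under all 20 alternatives, which reuse the libraries that chose the genes. For Cd2 it was −13.95 with DESeq2, −12.10 with limma-voom (adjusted p 0.0861), −14.47 with a Y-linked covariate and between −15.12 and −12.57 with 1 library left out, the most negative without A053. For Dok3 it was −5.45 with the Y-linked covariate (adjusted p 0.278) and between −6.46 and −5.47 with 1 library left out, and for Hvcn1 between −4.37 and −3.82. The number of genes called for the interaction was 268 with no count filter, 166 with DESeq2, 0 with limma-voom (1144 at an unadjusted p under 0.05), 1 with the Y-linked covariate and 6 without A031 and A042 together, an alternative chosen after seeing the data. With 1 library left out it was 1 to 6, with 2 without A051 and 6 without A042. In the double genotype against the wildtype, Dok3 passed the threshold at 2.97 with no count filter (adjusted p 0.00726) and at 2.95 with DESeq2 (4.30e-04), and Hvcn1 at 2.00 (0.0322) and 1.96 (0.00332). In the Runx1 mutant against the miR-146a knockout, Cd2 no longer passed at −5.73 with the Y-linked covariate (0.0531) and at −5.03 without A031 and A042 (0.0796), and its value was between −6.20 and −5.03 with 1 library left out. Dok3 turned to 0.11 without A042 and without A031 and A042 together, within −0.87 to 0.11 over single libraries. Hvcn1 passed at −1.68 with DESeq2 (0.00688). The cause of these shifts was not tested, except that fewer libraries or other genes enter some of the fits. No paired analysis was possible because the columns carry no replicate numbers. Depth limits Cd2 outside the miR-146a knockout, where 0 counts in a library allow up to 3.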
